A study of Mus musculus with 19 samples.

Results

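The genes encoded in mouse mitochondrial DNA were described in 19 single preimplantation embryos whose polyA RNA was sequenced. They were chosen as every gene row whose symbol starts with mt-, which gave 37 of the 53379 gene rows. The 37 are 13 protein-coding genes, 2 ribosomal RNAs (rRNAs) and 22 transfer RNAs (tRNAs), and the identifier, start, end and strand of all 37 match GENCODE M21 on the mitochondrial chromosome of GRCm38.

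Embryos came from in vitro fertilisation, were cultured in KSOM medium at 37 °C under 5% CO2 and were collected 96 hours after insemination. Crosses of Alyref+/- parents gave 5 morulae, of which 2 were KO and 3 non-KO, and 3 blastocysts, all non-KO. Crosses of Gabpb1+/- parents gave 5 morulae, of which 3 were labelled KO and 2 non-KO, and again 3 blastocysts, all non-KO. WT B6D2F1 parents supplied 3 more blastocysts, and B6D2F1 is the strain given for every embryo. Non-KO embryos are labelled WT or heterozygous without saying which, so a non-KO embryo may carry 1 deleted allele. The submitters assigned KO from missing reads over the deletion in these same libraries, and no blastocyst was labelled KO. Each embryo is 1 library, all groups share the culture and the 96 hours, and cross and batch cannot be told apart. The protein made from Alyref helps to hand mRNAs to the nuclear export machinery. Gabpb1 encodes one subunit of GABP, a transcription factor known for controlling nuclear genes of the respiratory chain.

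Mitochondrial DNA is a small circle that the mitochondrion transcribes itself, with the polymerase POLRMT and the factors TFAM and TFB2M. Both strands are read as long transcripts, and tRNAs that lie between the other genes are cut out of them, which frees the mRNAs and rRNAs. The mRNAs encode subunits of complex I (mt-Nd genes), complex III (mt-Cytb), complex IV (mt-Co genes) and complex V (mt-Atp genes). The remaining subunits of these complexes are nuclear. In the preimplantation embryo the egg supplies the mitochondria, and replication of their DNA is known to stay low until about the blastocyst stage.

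Of the 37 genes, 28 are read from the plus strand of the reference: 12 protein-coding genes, both rRNAs and 14 tRNAs. The minus-strand genes are mt-Nd6 and 8 tRNAs, namely mt-Tq, mt-Ta, mt-Tn, mt-Tc, mt-Ty, mt-Ts1, mt-Te and mt-Tp. The 4 tRNAs below are those the results turn on, given 5′ to 3′ on their own strand from the GENCODE M21 transcripts (GRCm38), with the anticodon in capitals. The genes mt-Tf (chrM:1-68, for phenylalanine), mt-Tv (chrM:1025-1093, for valine) and mt-Tl1 (chrM:2676-2750, for leucine) flank the rRNA genes on the plus strand. The mt-Ts1 gene (chrM:6870-6938, for serine) lies on the minus strand.
mt-Tf: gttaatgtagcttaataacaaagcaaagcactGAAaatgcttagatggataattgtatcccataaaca
mt-Tv: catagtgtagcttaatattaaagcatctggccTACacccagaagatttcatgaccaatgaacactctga
mt-Tl1: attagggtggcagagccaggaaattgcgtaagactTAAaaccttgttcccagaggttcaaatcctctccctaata
mt-Ts1: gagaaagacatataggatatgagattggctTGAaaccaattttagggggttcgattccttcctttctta

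The ends of the coding genes show how tightly they are packed. The last 30 coding bases of 4 mRNAs are printed with the stop codon, or what the gene holds of it, in capitals. Of the 13 protein-coding genes, 10 end in a full stop codon and 3 (mt-Co3, mt-Nd4 and mt-Cytb) end in an incomplete one, which the polyA tail is known to complete. The end of mt-Co1 (chrM:6843-6872) overlaps mt-Ts1 on the opposite strand by 3 bases. The other ends are those of mt-Co3 (chrM:9361-9390), mt-Nd4 (chrM:11515-11544) and mt-Cytb (chrM:15259-15288), all on the plus strand.
mt-Co1: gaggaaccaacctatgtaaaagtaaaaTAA
mt-Co3: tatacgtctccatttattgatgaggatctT
mt-Nd4: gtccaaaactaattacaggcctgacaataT
mt-Cytb: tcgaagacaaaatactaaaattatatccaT

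Adjacent genes also overlap by 43 bases at mt-Atp8 and mt-Atp6, by 14 at mt-Nd5 and mt-Nd6 (opposite strands) and by 7 at mt-Nd4l and mt-Nd4. The strand setting of the counting is not given in the sources used here, so counts in the overlaps between strands could belong to either gene. Because both strands are read as long transcripts, a whole row could also hold counts of RNA from the opposite strand. Plus-strand and minus-strand therefore name the annotation of a row and not the strand its fragments came from. A tRNA of 59 to 75 bases is shorter than many sequenced fragments. Its count does not show whether a fragment came from the mature tRNA or from a longer RNA that runs across it, and its level per length is not comparable with that of an mRNA.

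Nuclear copies of mitochondrial DNA limit what a count on these genes can mean. By sequence, 16 nuclear gene rows match a mitochondrial protein-coding gene over at least 100 bases at 90% identity or more, and none matches an rRNA gene. The tRNA genes, of 59 to 75 bases, could not reach that length, so copies of them could not be found this way. A stretch of mt-Co1 (chrM:6408-6467, plus strand) is given beside the same stretch in the copies Gm29216 (chr1:24616111-24616170, minus strand) and Gm13340 (chr2:22588508-22588567, minus strand), with bases that differ from mt-Co1 in capitals.
mt-Co1: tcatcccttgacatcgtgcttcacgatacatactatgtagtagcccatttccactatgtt
Gm29216: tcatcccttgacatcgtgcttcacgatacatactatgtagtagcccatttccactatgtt
Gm13340: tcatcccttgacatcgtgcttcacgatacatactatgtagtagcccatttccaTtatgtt

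The first copy differs from mt-Co1 at 0 of these 60 bases and the other at 1, so a fragment inside such a stretch cannot be assigned to one locus from its sequence. Across whole rows, Gm10222 (a copy of mt-Nd4l) held 100 to 103% of the counts of mt-Nd4l in every embryo. Gm28437 held 101 to 102% of the counts of mt-Co3, Gm28661 held 100 to 101% of those of mt-Co2, and Gm10925 held 107 to 112% of those of mt-Atp6. These 4 copies lie together on chromosome 1. Gm29216, which covers 483 bases of mt-Co1, held 20.4 to 33.6% of its counts, and Gm13340 held 9.49 to 10.5%. The copies together took 0.77 to 2.40% of gene counts in an embryo. How fragments with several matches were counted is not given in the sources used here, so levels of the members are those of their own rows and may hold part of the signal of the pair.

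**Figure D1:**
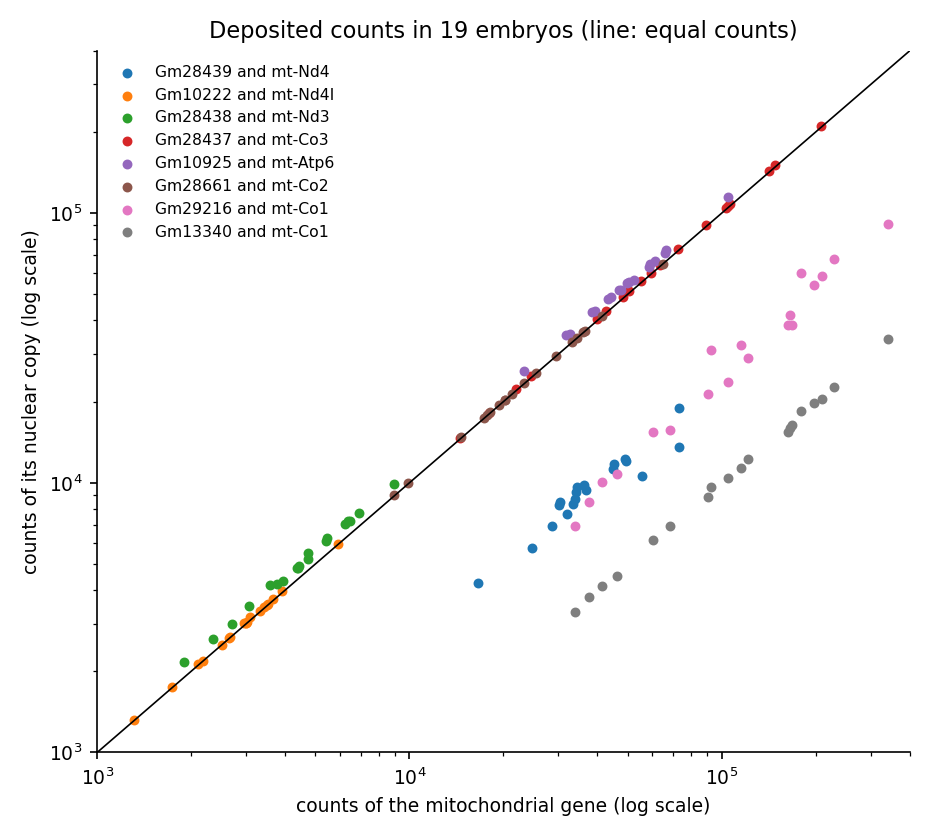
Deposited counts of 8 nuclear copies (vertical, logarithmic) against those of the mitochondrial gene each matches (horizontal, logarithmic), 1 point per copy and embryo, with a line at equal counts. Copies of mt-Nd4l, mt-Co3 and mt-Co2 lie on the line, those of mt-Atp6 and mt-Nd3 just above it, and both copies of mt-Co1 and the copy of mt-Nd4 below it.

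Gene counts ranged from 7.49 to 31.5 megacounts per embryo, and the ERCC spike-in RNA, added after lysis, took 0.501 to 1.95% of counts. In Alyref KO morulae Alyref stood at 48.1 and 58.8 CPM (counts per megacount, scaled by TMM), against 211, 293 and 162 CPM in their non-KO controls (log2 fold change -2.06, adjusted p = 0.0227, edgeR's quasi-likelihood test). KO was assigned from missing reads in these same libraries, so the lower Alyref count is no independent check of the label. Gabpb1 was at 78.7, 261 and 151 CPM in morulae labelled Gabpb1 KO and at 94.4 and 83.8 CPM in the controls (log2 0.88, adjusted p = 0.243). The gene-level count therefore did not follow the Gabpb1 label, and these embryos are called labelled KO throughout. Markers of cumulus or granulosa cells were near 0 (0 of 8 passed the filter, at most 12 counts in an embryo), while 8 of 8 trophectoderm, 8 of 8 epiblast and 6 of 6 primitive endoderm markers passed it. Summed trophectoderm markers were at 378 to 4100 CPM in the 10 morulae and at 4050 to 6720 CPM in the 9 blastocysts. Krt8 and Krt18 held most of that sum in every embryo, so it mainly follows these genes and not all 8 markers. In whole embryos, fewer cells of a type and less RNA per cell cannot be told apart.

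Mitochondrially encoded RNA made up 4.26% ± 0.903 of gene counts (SD, n = 19). The share was 3.34 and 3.53% in Alyref KO morulae, and 2.51, 3.29 and 5.29% in their non-KO controls. It was 5.74, 3.39 and 3.11% in morulae labelled Gabpb1 KO, and 4.28 and 3.86% in the non-KO morulae beside them. Within the Alyref cross non-KO morulae and the labelled Gabpb1 KO morulae, 1 embryo each lay well above the other 2. Blastocysts were at 4.36, 4.01 and 4.35% in the Alyref cross, 4.24, 4.98 and 5.28% in the Gabpb1 cross and 5.00, 5.10 and 5.19% in WT embryos. Protein-coding genes took 98.0 to 98.8% of these counts and tRNAs 1.25 to 1.96%.

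Both rRNA genes, mt-Rnr1 (chrM:70-1024, small subunit) and mt-Rnr2 (chrM:1094-2675, large subunit), were listed at 0 in all 19 embryos. All 354 nuclear rows of type rRNA were also at 0, so these rows do not measure the rRNAs. The other 35 members, all 13 protein-coding genes and all 22 tRNAs, passed the filter on low values and were tested. Among them mt-Tf, mt-Tv and mt-Tl1 abut the rRNA genes, with 0 or 1 base between. Whether what left the rRNA rows at 0 also affected fragments across these borders was not tested.

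Group mean shares were compared as log2 ratios, which carry no test. The ratio was -0.11 for Alyref KO against non-KO morulae and 0.0029 for labelled Gabpb1 KO against non-KO morulae. Blastocysts against morulae gave 0.20 in the Alyref cross and 0.25 in the Gabpb1 cross. Set against ERCC counts in place of gene counts, these last values became -0.25 and -0.66. The Alyref cross values turn on morula 3: without it the log2 ratio was 0.55 with gene counts and 0.55 with ERCC counts, so the sign of the ERCC value reverses. Without morula 1 the ratio with gene counts was -0.019, so its sign rests on that embryo. Mitochondrial counts per ERCC count were 3.41, 2.10 and 8.92 in Alyref cross non-KO morulae and 3.76, 3.98 and 4.35 in the blastocysts of that cross. They were 11.4, 1.71 and 3.17 in morulae labelled Gabpb1 KO, the widest range among the 7 groups.

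The makeup of those counts separated the stages, although the total did not. The mt-Nd genes of complex I (NADH dehydrogenase) took 40.3 to 57.7% of mitochondrial counts in the 10 morulae and 28.5 to 38.5% in the 9 blastocysts, with no overlap. The mt-Co genes of complex IV (cytochrome c oxidase) took 15.0 to 36.4% in morulae and 36.6 to 52.1% in blastocysts. The ratio of complex IV to complex I counts therefore lay between 0.259 and 0.903 in every morula and between 0.952 and 1.82 in every blastocyst. Within morulae it was lowest in labelled Gabpb1 KO embryos 2 and 3, at 0.259 and 0.288, against 0.534 in the first and 0.869 and 0.890 in their non-KO controls. It was 0.697 and 0.488 in Alyref KO morulae and 0.572, 0.418 and 0.903 in the controls of that cross, so those groups overlapped. These shares do not depend on how libraries are scaled, and no test was made of a sum over the members.

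**Figure D2:**
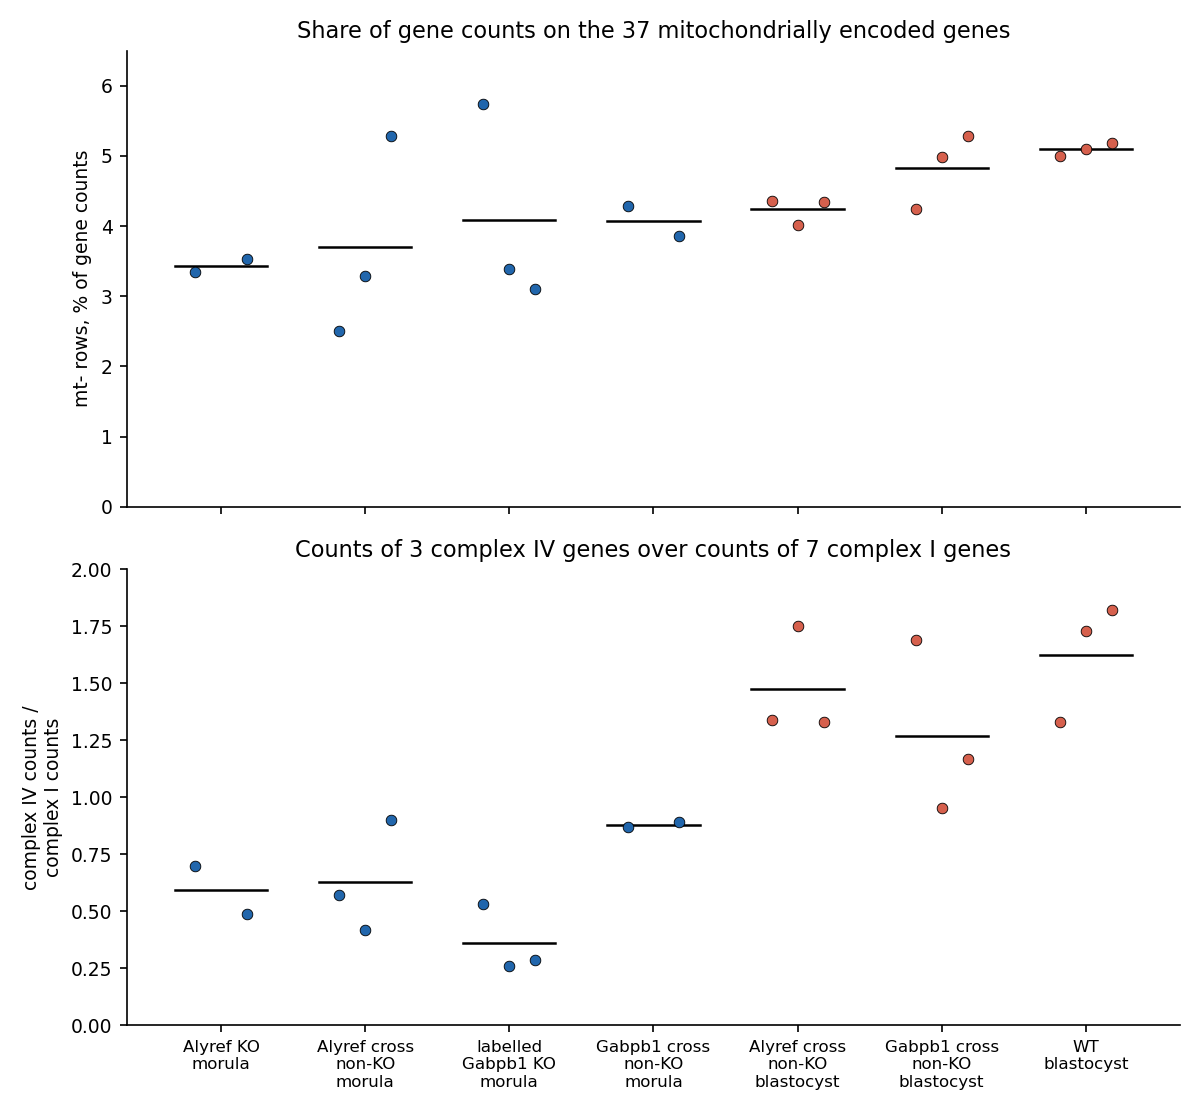
Top, the share of gene counts on the 37 genes (percent); bottom, the ratio of complex IV to complex I counts. Points are single embryos by group, blue for morulae and red for blastocysts, and lines are group means. Shares overlap between stages, while ratios of the 10 morulae reach at most 0.903 and those of the 9 blastocysts start at 0.952.

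Per length, as FPKM (counts per kilobase of exon and megacount), mt-Nd1 (chrM:2751-3707, a core subunit of complex I) was the highest protein-coding gene in 10 of 10 morulae. In the 9 blastocysts mt-Co3 led in 5, mt-Nd1 in 3 and mt-Co1 in 1. Over all 19 embryos the mean level per length ran from 8420 FPKM for mt-Nd1 through 6490 for mt-Co3, 5830 for mt-Co1, 5230 for mt-Atp6 and 4590 for mt-Cytb. It then dropped to 2650 FPKM for mt-Co2 and 2380 for mt-Atp8, and was 969 for mt-Nd3 and 727 for mt-Nd4l. The row of mt-Nd6, annotated on the minus strand, averaged 1290 FPKM, as did mt-Nd5 on the other strand. Part of the mt-Nd6 counts could come from plus-strand RNA, which was not tested. In Alyref cross embryos mt-Co3 was at 2650, 2290 and 7540 FPKM in non-KO morulae and 8430, 8320 and 7680 FPKM in blastocysts, where morula 3 stood near the blastocysts. mt-Cytb was at 3370, 5580 and 5710 FPKM in those morulae and 4440, 3080 and 3680 FPKM in the blastocysts. Levels of mt-Co3, mt-Co2, mt-Atp6, mt-Nd3 and mt-Nd4l come from rows with a near-identical nuclear copy, and copies as close cover 876 bases of mt-Nd4 and 483 bases of mt-Co1.

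**Figure D3:**
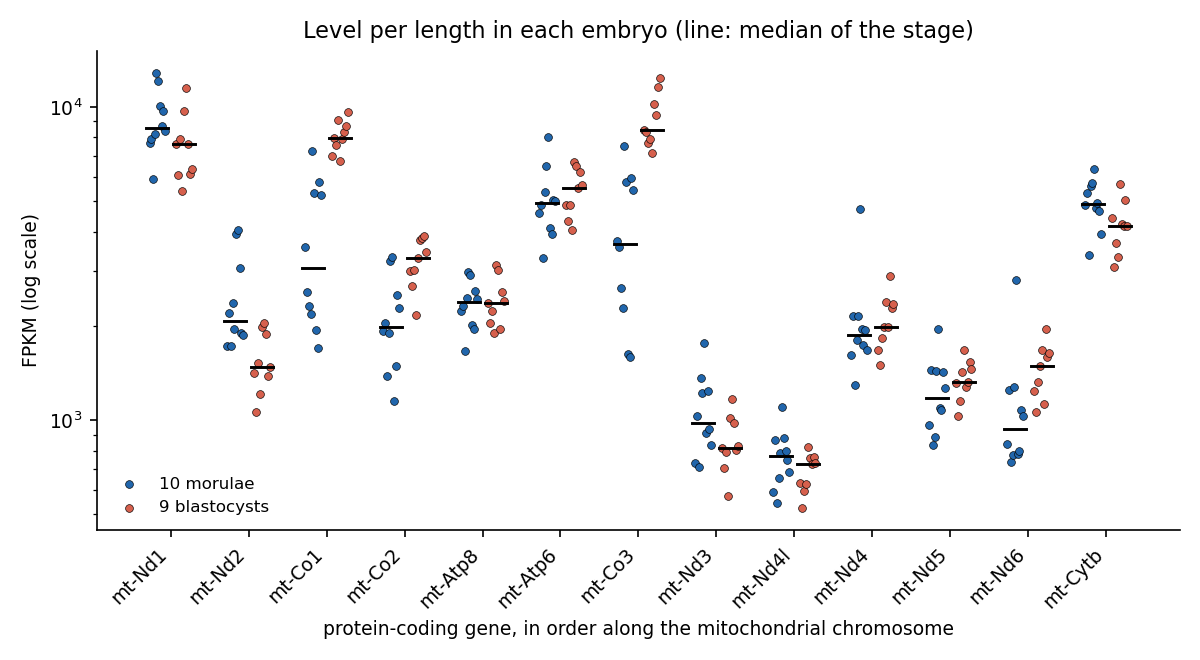
Level per length (FPKM) of the 13 protein-coding genes in order along the chromosome, on a logarithmic axis. Points are single embryos (10 morulae in blue, 9 blastocysts in red) and lines are stage medians. Morulae are highest at mt-Nd1, and blastocyst medians lie above morula medians by the widest step at mt-Co1 and mt-Co3.

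Variation across embryos was summarised as a ratio. The highest CPM of a gene among the 19 embryos, divided by the lowest, had a median of 10.2 over the 14 plus-strand tRNAs (1.79 for mt-Tg to 377 for mt-Tf). The median was 3.6 over the 8 minus-strand tRNAs (2.9 to 7.99) and 2.75 over the 12 plus-strand mRNAs (1.86 to 7.85). For mt-Nd6 it was 3.53. The widest ratios rest on few counts: the lowest embryo held 1 count of mt-Tf, 1 of mt-Ts2, 4 of mt-Th, 4 of mt-Tl2 and 13 of mt-Tv, while no minus-strand tRNA was under 42 counts. The plus-strand mt-Tl1, with 277 counts or more in every embryo, had a ratio of 10.8. The most abundant tRNA row by mean CPM was mt-Ts1 at 343, ahead of mt-Tl1 at 80.2, mt-Te (for glutamate) at 44.8, mt-Ty (for tyrosine) at 35.5 and mt-Tq (for glutamine) at 29.5. Beside the mRNA whose end it faces, mt-Ts1 held 2.73 to 5.39 counts per 100 counts of mt-Co1 in every embryo. Likewise mt-Te held 5.82 to 8.46 per 100 counts of mt-Nd6, its neighbour on the minus strand, while mt-Tl1 ranged more widely, from 0.298 to 1.99 per 100 counts of mt-Nd1. Whether counts on mt-Ts1 come from the tRNA or from mt-Co1 RNA that runs across it was not tested.

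**Figure D4:**
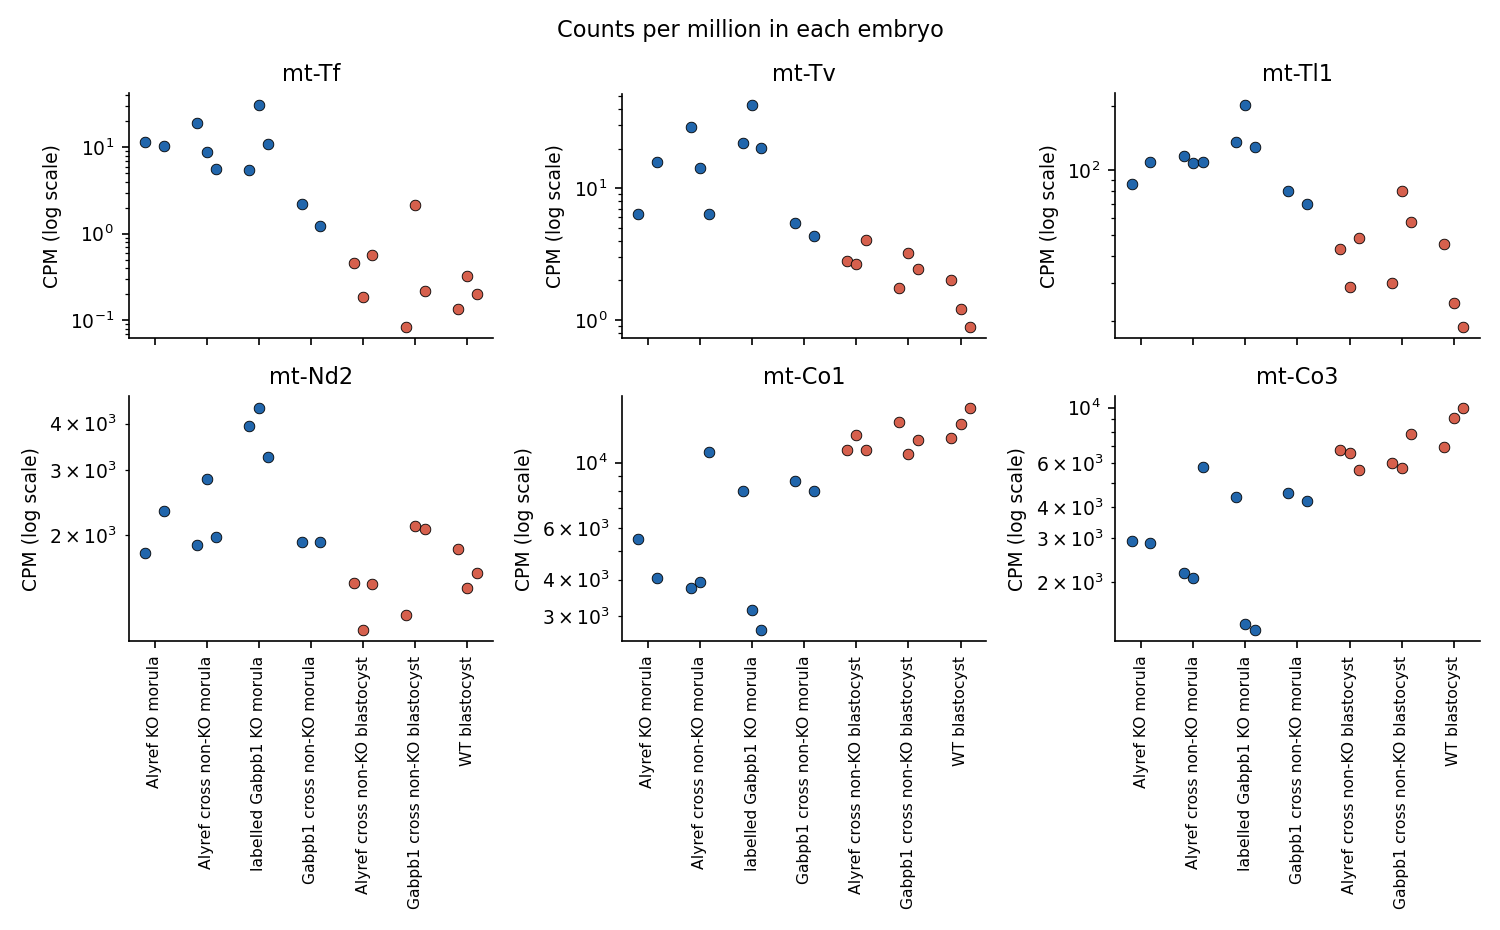
CPM of 6 mitochondrial genes in each of the 19 embryos by group (logarithmic axes that do not start at 0), blue for morulae and red for blastocysts. The tRNAs mt-Tf, mt-Tv and mt-Tl1 are lower in most blastocysts, while mt-Co1 and mt-Co3 are lower in most morulae.

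In the Alyref cross, edgeR's quasi-likelihood test over all 7 groups called 8 plus-strand tRNAs and mt-Nd2 lower in non-KO blastocysts than in non-KO morulae. This comparison asks how the 2 stages, both reached at 96 hours, differ within a cross. In either cross the embryos were of equal age, so stage cannot be told apart from pace of development. Nor can it be told apart from WT or heterozygous genotype, which is not given. In the stage comparisons, fell and rose mean lower and higher in blastocysts, not a change followed over time. Of 35 members tested, 9 fell and 0 rose (25.7% called), against 13.0% of all genes called, 7.43% lower and 5.62% higher. The 9 were 8 of 14 plus-strand tRNAs and 1 of 13 protein-coding genes. No minus-strand tRNA passed (0 of 8).

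mt-Tf, whose gene opens the chromosome, stood at 19.2, 8.91 and 5.66 CPM in the morulae and at 0.454, 0.187 and 0.572 CPM in the blastocysts. These are 352, 105 and 87 counts against 14, 3 and 6, so the blastocyst values rest on few counts. It fell by 4.79 on the log2 scale (SE 0.94, adjusted p = 0.00895, edgeR's quasi-likelihood test), or 27.7-fold. Every blastocyst lay below every morula.

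mt-Tv stood at 29.3, 14.2 and 6.32 CPM in the morulae and at 2.82, 2.68 and 4.01 CPM in the blastocysts, without overlap. It fell by 2.40 (SE 0.53, adjusted p = 0.0138). mt-Tl1, which follows the large rRNA gene, stood at 117, 108 and 109 CPM and at 43.2, 28.7 and 48.5 CPM. It fell by 1.47 (SE 0.36, adjusted p = 0.0187), and again each blastocyst lay below each morula. The other 5 tRNAs that fell were mt-Ts2 (log2 -1.80, adjusted p = 0.0479), mt-Tr (-1.52, 0.0429), mt-Tk (-1.38, 0.0383), mt-Ti (-1.23, 0.0407) and mt-Tt (-1.03, 0.0376), which serve serine, arginine, lysine, isoleucine and threonine. mt-Ts2 was at 0.983, 0.933 and 0.912 CPM in morulae and at 0.259, 0.25 and 0.286 CPM in blastocysts. These are 18, 11 and 14 counts against 8, 4 and 3, so counting error is large in this row.

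The 1 protein-coding gene that passed was mt-Nd2, a complex I subunit, at 1880, 2840 and 1980 CPM in morulae and 1490, 1110 and 1480 CPM in blastocysts. It fell by 0.71 (SE 0.23, adjusted p = 0.0486). The other complex I genes had log2 fold changes from -0.62 (mt-Nd3, adjusted p = 0.162) to 0.29 (mt-Nd6, adjusted p = 0.615). mt-Cytb was at -0.49 (adjusted p = 0.174), mt-Atp6 at -0.20 and mt-Atp8 at -0.19.

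For complex IV the third morula stood apart. mt-Co1, its catalytic core, was at 3730, 3910 and 10900 CPM in morulae and at 11000, 12400 and 11000 CPM in blastocysts. mt-Co3 was at 2180, 2080 and 5790 CPM and at 6750, 6550 and 5640 CPM, and mt-Ts1 at 122, 125 and 356 CPM and at 435, 499 and 477 CPM. In all 3 rows the third morula was at or near blastocyst values. The mt-Ts1 row may hold counts of mt-Co1 RNA, so these 2 rows are not separate observations. With all embryos mt-Co1 differed by 0.89 (SE 0.40, adjusted p = 0.141), mt-Co3 by 0.92 (SE 0.43, adjusted p = 0.158) and mt-Ts1 by 1.23 (SE 0.53, adjusted p = 0.13). Without that morula the same differences were 1.58 (adjusted p = 0.00605), 1.57 (adjusted p = 0.014) and 1.93 (adjusted p = 0.0221). mt-Co2 differed by 0.34 (adjusted p = 0.497) with all embryos.

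By class, the median log2 fold change was -1.47 over plus-strand tRNAs (13 of 14 below 0) and -0.19 over protein-coding genes (8 of 13 below 0), beside -0.04 over all genes. Over minus-strand tRNAs it was 0.10 with 6 of 8 above 0, which became 1 of 8 (mt-Ts1) when libraries were scaled to ERCC, a scaling that shifts the median of all genes to -0.34. The 3 complex IV genes were above 0 with TMM (median 0.89), and 2 of 3 with ERCC scaling. Every blastocyst lay below every morula for 15 of 35 members (42.9%, against 19.2% of all genes) and above for 2, mt-Co1 and mt-Ts1 (5.71%, against 19.7%).

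The number of members called depended on the fit and on single embryos. Of the 9, 0 were called when only these 2 groups were fitted and 2 with ERCC scaling (mt-Tf and mt-Tv), and edgeR's filterByExpr gave 4 called members. Over all genes these settings called 24 with the 2 groups alone and 352 with ERCC scaling. The count of members was 1 without morula 1, 2 without morula 2, 15 without morula 3, 1 without blastocyst 1, 1 without blastocyst 2 and 3 without blastocyst 3. In the same order these fits called 854, 370, 4560, 422, 442 and 1104 of all 18410 genes, against 2402 with every embryo. The shift was therefore not particular to the members. mt-Tf was called in all 6 of these fits (adjusted p 0.00256 to 0.0492). mt-Tv lost its call without morula 1 (adjusted p = 0.0633), blastocyst 1 (0.0644) or blastocyst 2 (0.0671), and mt-Tl1 without morula 1 or 2 or blastocyst 1 or 2 (0.055 to 0.0866). mt-Tt lost its call in all 6 fits, and the other 5 (mt-Ti, mt-Tk, mt-Tr, mt-Ts2 and mt-Nd2) in each but the one without morula 3. The 9 members kept their sign in all 14 alternatives. Over these, mt-Tf was called in 13 (adjusted p 2.75e-06 to 0.0517) and mt-Tv in 10 (0.000204 to 0.0686), whereas mt-Nd2 was called in 3 (0.0233 to 0.368). The summed level of trophectoderm markers, mostly Krt8 and Krt18, moved with the stage. It was 705, 660 and 1940 CPM in the morulae, highest in the third, and 6720, 5850 and 4170 CPM in the blastocysts. Krt8 alone was at 171, 185 and 738 CPM and at 2100, 1980 and 1380 CPM. Krt18 was at 239, 256 and 912 CPM and at 4140, 3280 and 2340 CPM. Of the 8 markers, Krt8 (log2 2.32) and Krt18 (log2 2.80) rose and Tfap2c (log2 -1.19) fell. Epiblast and pluripotency markers moved too: their summed level was 643, 525 and 730 CPM in morulae and 382, 313 and 388 CPM in blastocysts, and 7 of 8 were below 0. Nanog (log2 -1.95, adjusted p = 0.00432) and Pou5f1 (log2 -0.80, adjusted p = 0.0421) fell. Nanog was called in each fit that left out 1 embryo, and Pou5f1 in the one without morula 3. The part of either marker group in the mitochondrial differences was not tested.

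**Figure D5:**
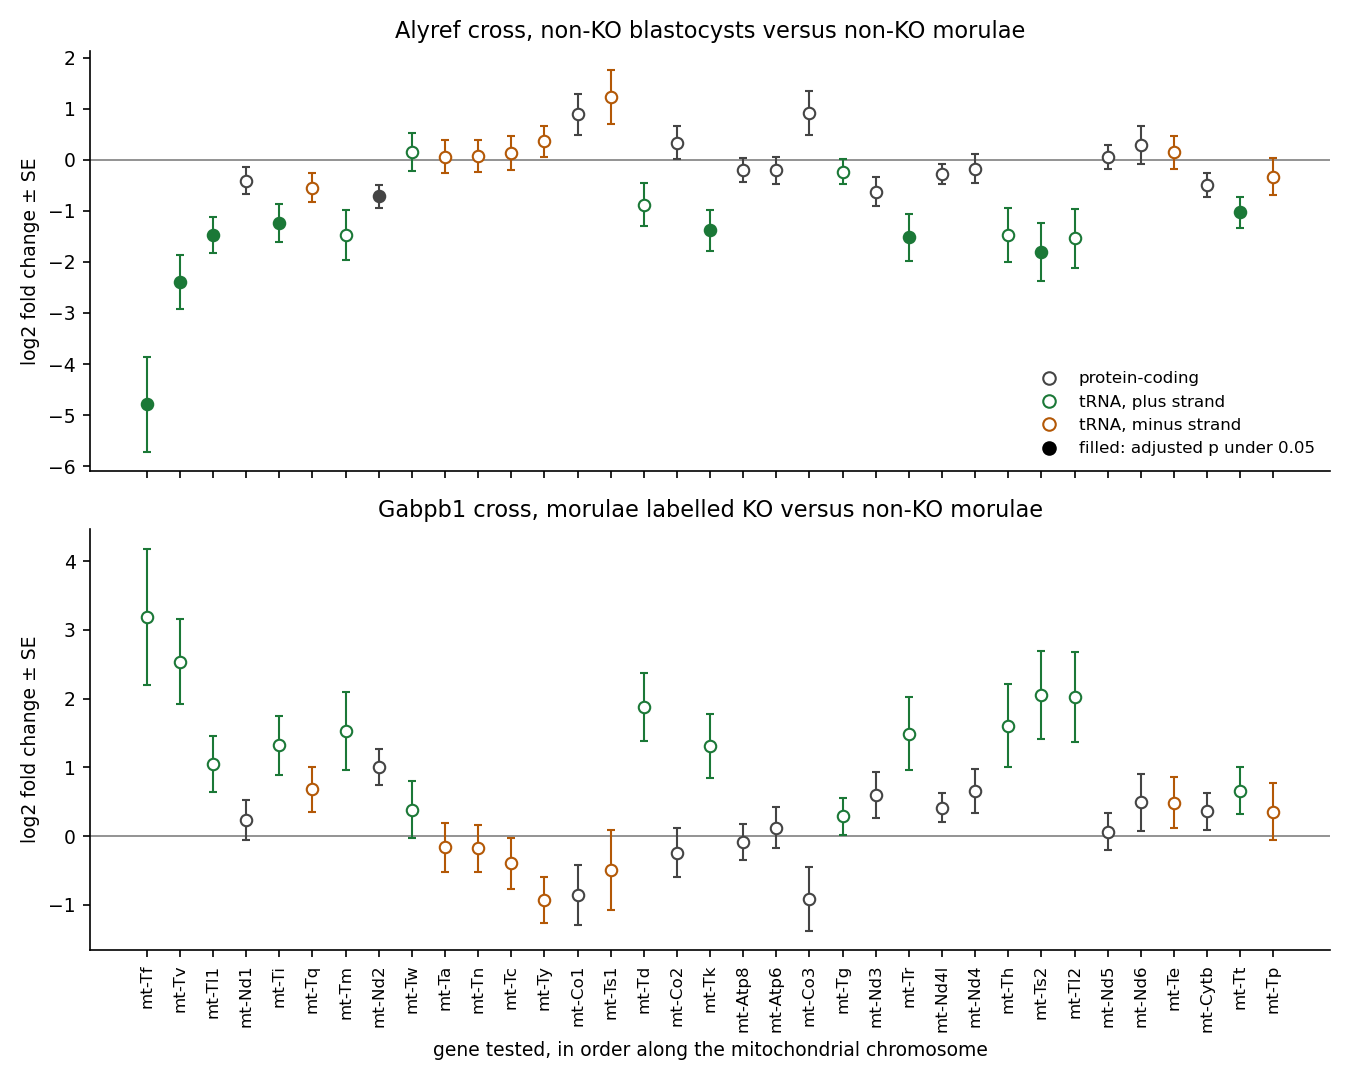
Log2 fold changes of the 35 tested members in order along the chromosome for the Alyref cross stage comparison (top) and the labelled Gabpb1 KO comparison (bottom). Bars are 1 SE on each side, filled points have an adjusted p under 0.05, and colours mark mRNAs and the tRNAs of each strand. In the stage comparison plus-strand tRNAs lie mostly below 0, and in the labelled Gabpb1 KO comparison all 14 lie above 0.

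The nuclear partners of these genes were read in the same embryos, and no test compares them with the members. Of 82 tested nuclear subunits of the respiratory complexes (of 85), 36 rose and 0 fell in blastocysts (43.9% called, against 13.0% of all genes), with a median log2 fold change of 0.68. Ndufa8, a complex I subunit, was at 105, 121 and 126 CPM in morulae and 255, 224 and 218 CPM in blastocysts (log2 0.99, SE 0.17, adjusted p = 0.00773). Ndufs6 of complex I rose by 0.82 (adjusted p = 0.00955) and Atp5o of complex V by 0.81 (adjusted p = 0.0171). The count of 36 was 0 with ERCC scaling, under which the median stayed above 0 at 0.275. It was 2, 3 and 52 without morula 1, 2 or 3 and 2, 2 and 15 without blastocyst 1, 2 or 3. Over all 18410 genes the calls were 352 with ERCC scaling and 854, 370 and 4560 without morula 1, 2 or 3. Without blastocyst 1, 2 or 3 they were 422, 442 and 1104.

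Of 20 genes for mitochondrial DNA maintenance and transcription, 0 rose and 2 fell. That is 10% called, below the 13.0% of all genes, so the count is not a result about the list. The 2 were Polrmt, the mitochondrial RNA polymerase, and Rnaseh1, which removes RNA paired with DNA (log2 -1.15, adjusted p = 0.0479). Polrmt was at 16.0, 20.2 and 16.7 CPM in morulae and 7.46, 7.42 and 5.72 CPM in blastocysts (log2 -1.36, SE 0.36, adjusted p = 0.0273). Tfam, which packages mitochondrial DNA and starts its transcription, differed by -0.13 (adjusted p = 0.811), and Lrpprc, which stabilises mitochondrial mRNAs, by 0.12 (adjusted p = 0.739). Of 39 genes for mitochondrial RNA processing and stability, 1 rose and 3 fell, which is 10.3% called. That again is below the share of all genes, so it is not a result about the list. Hsd17b10 was higher (log2 1.74, adjusted p = 0.0183). Trmt10c (log2 -1.20, adjusted p = 0.0267), 1110008L16Rik, also named Prorp (log2 -1.48, adjusted p = 0.0414), and Trmt61b (log2 -2.56, adjusted p = 0.0491), a tRNA methyltransferase, were lower. Hsd17b10, Trmt10c and 1110008L16Rik, the catalytic one, encode subunits of mitochondrial RNase P, which cuts the 5′ ends of tRNAs. They did not move in one direction, and lost the call in 6, 7 and 9 of 14 alternatives. No link between them and the tRNA levels was tested. In the fits without morula 1, without morula 2, without blastocyst 1 and without blastocyst 2, 0 genes of either list were called. Without blastocyst 3 the calls were 0 and 1, and without morula 3 Polrmt and Rnaseh1 kept theirs. One of 15 tested nuclear copies was called, Gm11512, with 90.7% identity to mt-Co1 and 6 to 87 counts per embryo (log2 1.69, adjusted p = 0.031). It kept that call only without morula 3 among the 6 fits that left out 1 embryo.

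In the Gabpb1 cross the comparison of the stages called 0 of 35 members, and 0.0% of all genes. edgeR gave 1 member with an unadjusted p under 0.05 (1237 of 18410 genes in all) and DESeq2 called 0 (57 of 18356 genes in all). mt-Tf was at 2.22 and 1.22 CPM in the 2 non-KO morulae and at 0.0828, 2.14 and 0.22 CPM in the blastocysts, so the groups overlapped (log2 -1.18, SE 0.95, adjusted p = 0.865). mt-Co1 was at 8690 and 8020 CPM in morulae and 13700, 10700 and 11900 CPM in blastocysts (log2 0.54, SE 0.45, adjusted p = 0.871). Every blastocyst was above every morula for 9 members (25.7%, against 11.4% of all genes), among them mt-Co1, mt-Co3, mt-Ts1, mt-Nd4 and mt-Nd6, and below for mt-Tv and mt-Th, which is 5.71% against 11.7%. With ERCC scaling, which shifts the median of all genes in this comparison to -0.86, 34 of 35 members were lower in blastocysts.

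The difference between the stage effects of the crosses was called for 0 of 35 members (0.00543% of all genes). It had 3 members with an unadjusted p under 0.05 (2534 of 18410 genes in all), and DESeq2 called 1, mt-Tt (336 of 18356 genes in all). For mt-Tf the stage effect differed by 3.61 (SE 1.34, adjusted p = 0.278). The call in one cross and not in the other is therefore not shown to be a difference between crosses.

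Between morulae labelled Gabpb1 KO and the non-KO morulae of the cross, 0 of 35 members were called by edgeR's quasi-likelihood test, against 1.65% of all genes. This comparison asks whether loss of a GABP subunit alters mitochondrial RNA. An unadjusted p under 0.05 was found for 13 of 35 members and for 3475 of 18410 genes in all. DESeq2 called 6 members (mt-Nd2, mt-Td, mt-Tf, mt-Ti, mt-Tl2 and mt-Tv), all higher in the labelled KO, and 1284 of 18356 genes in all.

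mt-Tv was at 22.2, 43.2 and 20.2 CPM in the labelled KO embryos and at 5.44 and 4.36 CPM in the controls (log2 2.54, SE 0.62, adjusted p = 0.051). mt-Nd2 was at 3940, 4420 and 3260 CPM against 1920 and 1920 CPM (log2 1.01, SE 0.26, adjusted p = 0.0572). mt-Td, the tRNA for aspartate, was at 3.72, 6.05 and 3.42 CPM against 1.07 and 1.30 CPM (log2 1.88, SE 0.49, adjusted p = 0.0608). In these rows all labelled KO embryos lay above both controls, and none passed the threshold. mt-Tf was at 5.45, 31.2 and 10.8 CPM against 2.22 and 1.22 CPM (log2 3.19, SE 1.00, adjusted p = 0.108), and mt-Tl1 at 136, 202 and 129 CPM against 80.6 and 69.5 CPM (log2 1.05, adjusted p = 0.181).

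The plus-strand tRNAs had log2 fold changes above 0 in 14 of 14 cases (median 1.51), or 13 of 14 with ERCC scaling (median 0.99). The complex I genes were above 0 in 7 of 7 cases (median 0.49), or 5 of 7 with ERCC scaling. All 3 complex IV genes were below 0 with either scaling (median -0.86 with TMM). The median over minus-strand tRNAs was -0.17, and over all genes it was 0.06, or -0.41 with ERCC scaling. In CPM scaled by TMM, every labelled KO embryo lay above both controls for 19 of 35 members (54.3%, against 15.8% of all genes). It lay below both for mt-Ty and mt-Co1 (5.71%, against 16.4%). The overlap of groups was not examined with ERCC scaling, so this separation may depend on the scaling.

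In complex IV the first labelled KO embryo stood apart. mt-Co1 was at 7980, 3150 and 2690 CPM against 8690 and 8020 CPM (log2 -0.86, SE 0.44, adjusted p = 0.302). mt-Co3 was at 4380, 1350 and 1280 CPM against 4550 and 4220 CPM (log2 -0.91, SE 0.47, adjusted p = 0.308), and mt-Ts1 at 430, 86.0 and 77.7 CPM against 295 and 262 CPM. The first embryo was near the controls in mt-Co1 and mt-Co3 and above them in mt-Ts1. Without it 6 members were called, while calls over all 18410 genes rose from 303 to 966, so the gain was not particular to the members. mt-Co1 (log2 -1.52, adjusted p = 0.0398), mt-Co3 (log2 -1.74, adjusted p = 0.0223) and mt-Ts1 were lower. mt-Td (log2 1.99, adjusted p = 0.0433), mt-Tf (log2 3.60, adjusted p = 0.0482) and mt-Tv (log2 2.69, adjusted p = 0.0351) were higher. The same embryo had the most mitochondrial counts per ERCC count and the highest summed trophectoderm level of the 3, at 2570, 378 and 1080 CPM in the labelled KO embryos against 4100 and 2570 CPM in the controls. Of the 8 trophectoderm markers 0 were called, 7 were below 0, and their part in the result was not tested.

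Of the nuclear genes that serve mitochondrial DNA, Tfam was at 25.8, 36.4 and 15.9 CPM in labelled KO embryos and at 68.5 and 64.9 CPM in controls. The groups did not overlap, and the difference of -1.36 (SE 0.33, adjusted p = 0.051) did not pass. It was called in 5 of 13 alternatives (adjusted p 0.00391 to 0.338), one of them without labelled KO embryo 2 (0.0391). The difference from the Alyref KO effect on Tfam was -1.48 (adjusted p = 0.139). In Alyref KO morulae Tfam was at 66.0 and 68.3 CPM against 69.1, 44.2 and 71.8 CPM in controls (log2 0.12, adjusted p = 0.936). Lrpprc was at 174, 201 and 181 CPM in labelled Gabpb1 KO embryos against 173 and 164 CPM (log2 0.14, adjusted p = 0.804). 0 of 20 genes of maintenance and transcription were called, and 1 of 39 genes of RNA processing fell, Mrm2, an rRNA methyltransferase. Mrm2 was at 11.3, 8.38 and 8.06 CPM against 18.3 and 32.4 CPM (log2 -1.46, SE 0.35, adjusted p = 0.0477), and lost the call in 7 of 13 alternatives (adjusted p 0.00355 to 0.394), among them those without labelled KO embryo 2 (0.111) or 3 (0.108) and without control 1 (0.051) or 2 (0.394). Of 82 nuclear subunits of the respiratory complexes 0 were called, with a median of 0.01. Unadjusted p was under 0.05 for 15 of the 82, beside 3475 of 18410 genes in all.

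Between Alyref KO and non-KO morulae, 0 of 35 members were called (0.228% of all genes). Only 2 members had an unadjusted p under 0.05 (2226 of 18410 genes in all), and DESeq2 called 0 (502 of 18356 genes in all). The control morulae are the same 3 embryos as in the stage comparison of that cross, and the same holds for the controls of the Gabpb1 cross. mt-Tc, the tRNA for cysteine, had the lowest adjusted p: it was at 5.97 and 6.03 CPM in KO and at 10.3, 8.06 and 18.2 CPM in non-KO morulae (log2 -1.02, SE 0.39, adjusted p = 0.289). mt-Co1 was at 5490 and 4050 CPM in KO morulae against 3730, 3910 and 10900 CPM, and mt-Tf at 11.4 and 10.3 CPM against 19.2, 8.91 and 5.66 CPM. KO values lay within the control range in both. Protein-coding genes had log2 fold changes from -0.40 (mt-Nd3) to 0.15 (mt-Nd5). The KO embryos lay above all controls for 0 members (12.5% of all genes) and below all for 7 (20.0%, against 12.3%), which were mt-Tq, mt-Tw, mt-Ta, mt-Tn, mt-Tc, mt-Tt and mt-Tp, 5 of them on the minus strand.

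The difference between the KO effects was called for 0 of 35 members (0.907% of all genes). Unadjusted p was under 0.05 for 11 (3103 of 18410 genes in all), and DESeq2 called 1, mt-Tv (894 of 18356 genes in all). For mt-Tv the labelled Gabpb1 KO effect exceeded the Alyref KO effect by 3.11 (SE 0.84, adjusted p = 0.0898), for mt-Nd2 by 1.13 (adjusted p = 0.141) and for mt-Tf by 3.24 (adjusted p = 0.222). Without the third Alyref cross non-KO morula mt-Tv was called, among 707 of 18410 genes.

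Non-KO morulae of the Gabpb1 cross set against those of the Alyref cross gave 0 called members (1.85% of all genes) and a lowest adjusted p of 0.0808. Unadjusted p was under 0.05 for 4 of 35 members and 4129 of 18410 genes in all. DESeq2 called 3 members (mt-Tf, mt-Tt and mt-Tv) and 1709 of 18356 genes in all. Without the third Alyref cross morula edgeR called 2 members, mt-Tv lower and mt-Ty higher, and 2435 of 18410 genes in all. Each member count is a smaller share than that of all genes, so none is a result about the members. The Gabpb1 cross lay below the Alyref cross in every embryo for 12 members (34.3%, against 18.2% of all genes) and above for 0 (17.9% of all genes). Summed trophectoderm markers did not overlap between these groups, at 4100 and 2570 CPM in the Gabpb1 cross and 705, 660 and 1940 CPM in the Alyref cross, with 0 of 8 called. All 8 of 8 epiblast and pluripotency markers were below 0 in the Gabpb1 cross (summed level 412 and 209 CPM against 643, 525 and 730 CPM), and Nanog fell (log2 -1.38, adjusted p = 0.0334). Nanog lost that call without Alyref cross morula 1 (adjusted p = 0.097) or 2 (0.1) and without Gabpb1 cross morula 2 (0.247). Their part in the result was not tested, and cross and batch cannot be told apart here.

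Against WT blastocysts, which both crosses share as the control, non-KO blastocysts gave 0 called members in the Alyref cross and 0 in the Gabpb1 cross, and 0.0% of all genes in each. Unadjusted p was under 0.05 for 4 and 3 members (541 and 1123 of 18410 genes in all). DESeq2 called 0 members in either (15 and 42 of 18356 genes in all). mt-Co3 was at 6970, 9120 and 10000.0 CPM in WT blastocysts, 6750, 6550 and 5640 CPM in the Alyref cross and 6010, 5740 and 7800 CPM in the Gabpb1 cross. Alyref cross blastocysts lay below every WT blastocyst for 9 members (25.7%, against 6.15% of all genes) and above for mt-Tv, mt-Tk and mt-Tt (8.57%, against 6.0%). Gabpb1 cross blastocysts lay below for 0 members (6.33% of all genes) and above for mt-Ty, mt-Tk and mt-Tt (8.57%, against 6.51%).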

How the data were processed

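The authors deposited 1 table of raw counts per gene and embryo, although its name announces FPKM; whole values and unequal column totals show this. Trimmomatic, Trim Galore, cutadapt, STAR, featureCounts and mm10 are named in the submitters' processing notes; versions, strand and multi-mapping settings are not given in the sources used here. Per the labels' protocols, cDNA of single lysed embryos was amplified over 16 cycles into Nextera XT libraries read as 50 and 25 bases. It has 53379 rows for genes and 92 for ERCC spike-ins, which were left out of library sizes.

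Counts were tested with edgeR 4.0.16 (R 4.3.3): TMM scaling, 1 mean for each of the 7 groups over all 19 embryos, quasi-likelihood F test, 9 contrasts, Benjamini-Hochberg adjustment over all genes tested, called at adjusted p under 0.05. Tested were the 18410 of 39262 genes with a count whose FPKM, computed from counts and deposited lengths, was 1 or more in at least 2 embryos. CPM use the TMM-scaled library, and SE comes from the size of a log2 fold change and the root of its F. All counts of genes without overlap between groups rest on these CPM. DESeq2 1.42.0, ERCC scaling, other filters and leaving out each embryo were alternatives. Nuclear copies were found with BLAST+ 2.17.0 on GENCODE M21 transcripts, at 90% identity over 100 bases. In simulated data for the Alyref cross stage comparison (18410 genes), 68, 68 and 64 genes above a minimum mean count were changed by 1, 2 and 3 (log2). Of these, 13.2%, 48.5% and 82.8% were recovered, with 2 wrong calls. The data themselves gave 2402 called genes, far more than were changed there, so these shares may not hold for the data.

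The members and lists were chosen with earlier results of these data known. Named are all protein-coding and rRNA members, the 5 tRNAs highest in mean CPM, every member called, Tfam, Polrmt, Lrpprc, Alyref, Gabpb1 and up to 3 called genes of a list with the smallest adjusted p; other names were chosen after their values were seen. Nothing in the labels says that embryos of a group came from separate fertilisations, so p-values measure the spread between these embryos. Without molecular identifiers, amplified counts are not independent molecules.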

Additional observations from a re-analysis of the deposited data

How the results depend on the processing

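Depth, 2 to 3 embryos per group and amplified counts limit these comparisons. Changes of 1 on the log2 scale were mostly not recovered in a simulation that changed far fewer genes than were called in the data. In the Alyref cross stage comparison 9 members were called. That count was 9 with DESeq2 (8 shared), 8 with scaling without mitochondrial rows, 2 with ERCC scaling, 3 without a filter, 4 with edgeR's filterByExpr, 4 with the replicate number as a block and 0 when only the groups compared were fitted, where 24 genes were called in all. It ran from 1 to 15 when an embryo was left out. Calls over all genes moved too, from 2402 to 3762 with DESeq2, 2406 with scaling without mitochondrial rows and 352 with ERCC scaling. They were 1990 without a filter, 2149 with filterByExpr, 2014 with the block and 370 to 4560 on leaving out an embryo. Samples with the same replicate number had correlations of deviations between -0.156 and 0.168, so the numbers do not pair embryos, and the block changed no other count of members called.

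For labelled Gabpb1 KO the 0 called members became 6 with DESeq2, 1 without a filter, 1 with scaling without mitochondrial rows, and 0 to 6 when an embryo was left out. For the non-KO morulae of the 2 crosses 0 became 3 with DESeq2 and 0 to 2 on leaving out an embryo. For the difference between KO effects it became 1 with DESeq2 and 0 to 1 on leaving out an embryo, and for the difference between stage effects 1 with DESeq2. DESeq2 also called more of all genes in these comparisons: 1284, 1709, 894 and 336 of 18356, against 303, 341, 167 and 1 of 18410 with edgeR. The causes were not tested.

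The median member log2 fold change in labelled Gabpb1 KO was 0.49; it was 0.23 with ERCC scaling and 0.26 to 0.70 on leaving out an embryo. In Alyref KO it was -0.18, and -0.51 to -0.064 on leaving out an embryo, the lowest without KO morula 2. With ERCC scaling the median became -0.69 for the Alyref cross stages (-0.33 with TMM), -0.75 for the Gabpb1 cross stages (0.18 with TMM) and 0.30 for the non-KO morulae (-0.22 with TMM). Log2 ratios of shares with ERCC as the denominator were -0.25 and -0.66 for the stages in the Alyref and Gabpb1 crosses and -0.10 for Alyref cross against WT blastocysts, where gene counts gave 0.20, 0.25 and -0.27. Leaving out an embryo, an alternative chosen after seeing the data, moved the Alyref cross value over ERCC to between -0.61 and 0.55. Among single members, 173 of the values recomputed kept their side of the threshold, 72 lost it, 14 gained it and 0 reversed. Leaving out the rows of the nuclear copies (15 of the 16 had been tested), chosen after seeing the data, left 9 members called. That fit left the counts of the members unchanged, so it does not address fragments shared with a copy.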
